A study of Mus musculus with 6 samples.

Results

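Integrins and laminins are the receptors and the ligands that tie a muscle fibre, a vessel wall or a leukocyte to the matrix around it. Integrins are pairs of 1 alpha and 1 beta chain that span the membrane, bind matrix or cell surface proteins outside and connect to the actin cytoskeleton inside. Laminins are trimers of 1 alpha, 1 beta and 1 gamma chain, and they form the first network of a basement membrane. In skeletal muscle the pair of Itga7 and Itgb1, together with dystroglycan, holds the fibre to laminin that contains Lama2, and loss of either Lama2 or Itga7 causes muscular dystrophy. Transcripts of these chains were compared between mouse muscle that had received TFEB, a basic helix-loop-helix factor that switches on genes of lysosomes and autophagy, and control muscle.

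The members were the probe sets whose only gene symbol is that of an integrin alpha or beta chain or of a laminin alpha, beta or gamma chain, leaving out binding partners such as Itgb1bp2. They came to 57 of the 22626 probe sets tested and to 32 of 12393 genes, with 41 probe sets for 22 integrin genes and 16 probe sets for 10 laminin genes. A single probe set read 18 of these genes and several probe sets read the other 14. Where a gene had several, it was counted by its brightest one over the 6 arrays, and the rest are given where they differ. Chains outside this set, such as Itga1 and Itgb8, were not analysed here.

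All 6 animals were wild-type C57BL/6 mice, given by the labels as 1 month old, although the study calls the injected mice adult, so the age is not settled. In the TFEB group the muscle of 3 mice was injected with an adeno-associated virus (AAV) carrying murine Tfeb, named Tcfeb in the labels, and in the GFP group that of 3 other mice with an AAV for green fluorescent protein. The vector drove both cDNAs from a CMV promoter, which is not specific to muscle fibres, and the labels do not say which muscle was taken. Each mouse gave 1 Affymetrix array of total RNA, so the spread is that between mice.

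The tissue read as muscle. The fibre genes Acta1 and Ckm lay between 14.17 and 14.37 on the log2 scale in every array, and of 15 fast fibre contractile genes 0 were called. Acta1 held the highest value of every array (14.34 to 14.37), and the median of the 15 was 14.02 to 14.11. Signal so near the top of the scale can compress differences, which was not tested, so 0 calls says little about fibre content. The groups did not overlap for any of the 15, with TFEB below GFP for 12 and above for 3, and the lower means numbered 14 with arrays at equal medians and 11 with fast fibre genes at equal medians. Those of smallest p were Myh1, a fast myosin (0.45 ± 0.089, adjusted p = 0.0107), and Actn3, a fast fibre actinin (-0.27 ± 0.065, adjusted p = 0.0204), and with Ryr1, the calcium release channel (-0.52 ± 0.16, adjusted p = 0.0491), they were the 3 of the 15 that passed on the adjusted p alone. The only probe set of Tfeb was lower on the TFEB arrays (7.92, 7.68 and 7.61) than on the GFP arrays (8.49, 8.47 and 8.58), a log2 difference of -0.77 ± 0.097 (SE, adjusted p = 0.00244). Whether it reads the delivered cDNA is not known from the sources, which leaves the labels unchecked by it, and "TFEB" below means the arrays labelled so. GFP replicate 2 stood apart: it differed more than 2-fold from GFP replicates 1 and 3 at 844 and 725 probe sets, against 87 between those 2 and 45 to 101 among the TFEB arrays. The beta-actin 3′ probe set exceeded the 5′ one by 0.22 to 0.34 on the TFEB arrays and by 0.037 to 0.077 on the GFP arrays, and its part in the results was not tested.

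Laminin beta 1 and gamma 1 and the integrin alpha chains 6, 7 and v were higher in TFEB muscle. Of the 32 genes, 6 rose (18.8%), namely Lamb1, Lamc1, Lamc3, Itga6, Itga7 and Itgav, and 0 fell, with a call meaning an adjusted p under 0.05 in limma and a fold change of at least 1.5. Over all genes 8.62% rose and 4.9% fell. Of 8 integrin beta chain genes 0 were called, which at these shares says little about beta chains. The same limit applies to low counts of calls in the small classes and marker lists below. The count also rests on the brightest probe sets. Itgb6 was called lower by the mean of its probe sets (-0.61) or by the one of smallest p (-0.91). Laminins gave 3 of 10 genes (30%) with a median log2 difference of 0.42, and integrins 3 of 22 (13.6%) with a median of -0.03, beside a median of -0.05 over all genes. Among the 57 probe sets, 12 rose (21.1%) and 1 fell (1.75%), against 7.51% and 6.11% of all probe sets. The groups did not overlap for 11 of the 32 genes with TFEB above GFP and for 6 with TFEB below, against 22.9% and 28.2% of all genes. With no fold limit 9 genes were higher and 2 lower, against 16.8% of all genes each way, and 20 of the 57 probe sets passed, against 32.6%. In bulk muscle a change in the number of cells of a type and a change in RNA per cell cannot be told apart. This holds for every difference below, higher or lower.

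**Figure D1:**
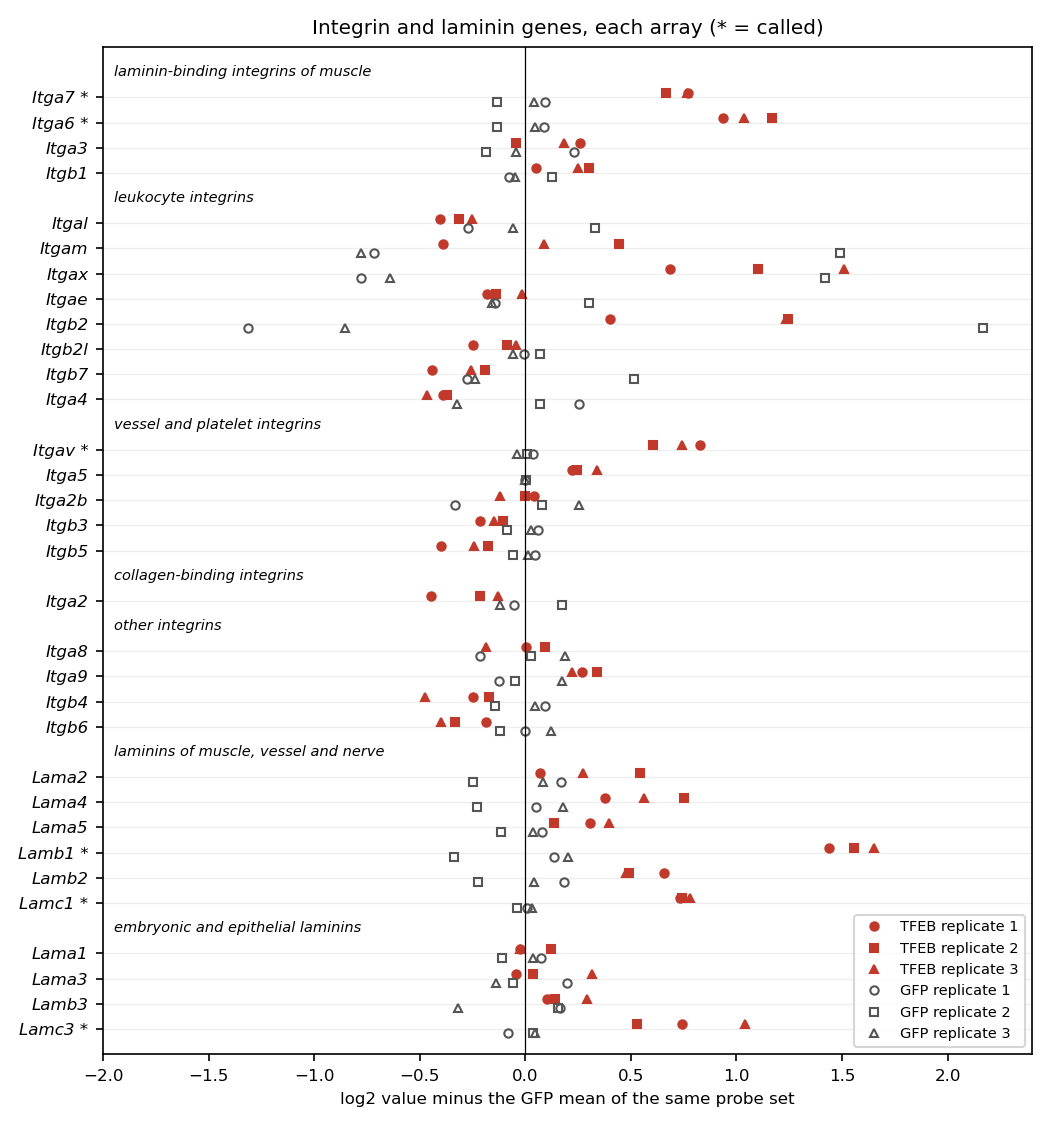
Deviation of each array's log2 value from the mean of the GFP arrays on the same probe set (x axis) for the 32 integrin and laminin genes (rows, by class). Filled red symbols are the 3 TFEB arrays and open symbols the 3 GFP arrays; the 6 genes with an asterisk were called, and the open squares of GFP replicate 2 lie far to the right for Itgb2, Itgam and Itgax.

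Lamb1, the laminin beta 1 chain, showed the largest difference among the called genes. It read 9.77, 9.89 and 9.98 on the TFEB arrays and 8.46, 7.99 and 8.53 on the GFP arrays (log2). The groups lay far apart, and the lowest value was that of GFP replicate 2. The difference was 1.55 ± 0.15 (SE), or 2.93-fold (adjusted p = 0.00122). All 3 probe sets of Lamb1 rose, the other two by 1.57 ± 0.27 and 0.84 ± 0.21, so the gene does not rest on the brightest one, whose "_s" suffix marks probes that can pair with more than 1 transcript.

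Lamc1, the gamma chain shared by nearly all laminins of muscle and vessels, read 9.27, 9.29 and 9.32 on the TFEB arrays and 8.55, 8.50 and 8.57 on the GFP arrays. The difference was 0.75 ± 0.064 (1.68-fold, adjusted p = 0.000857), and within each group the arrays were nearly equal. The second probe set of Lamc1 was not called, at 0.032 ± 0.12 (adjusted p = 0.851), with overlapping groups, so the call for this gene holds for 1 of its 2 probe sets. Lamc3, a gamma chain known from nerve, skin and brain surfaces, read 5.70, 5.49 and 6.00 on the TFEB arrays and 4.87, 4.99 and 5.00 on the GFP arrays. It rose by 0.77 ± 0.13 (1.71-fold, adjusted p = 0.00679), and its second probe set by 0.69 ± 0.10.

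The 4 other laminins of muscle, vessel and nerve had higher means in TFEB muscle and were not called. Lama4, the alpha chain of vessel basement membranes, read 8.21, 8.59 and 8.40 on the TFEB arrays and 7.89, 7.61 and 8.01 on the GFP arrays. Its difference of 0.57 ± 0.14 (1.48-fold, adjusted p = 0.0223) fell short of the fold limit, and its second, dimmer probe set gave -0.033 ± 0.20. Lamb2, the beta chain concentrated at the neuromuscular junction, read 8.88, 8.71 and 8.70 in TFEB muscle and 8.40, 7.99 and 8.26 in GFP muscle, a difference of 0.54 ± 0.12 (1.46-fold, adjusted p = 0.0155) that fell short likewise. Both genes had groups that did not overlap, and both sat close enough to the limit to be called once 1 array was left out: Lama4 without TFEB replicate 1 (0.66) or GFP replicate 3 (0.65), and Lamb2 without GFP replicate 1 (0.63).

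Lama5, an alpha chain of mature vessels and synapses, differed by 0.28 ± 0.096 (adjusted p = 0.0663) on its brightest probe set and by 0.44 ± 0.081 (adjusted p = 0.00810) on the other, under the fold limit on both. Lama2, the alpha chain of the fibre's own laminin, had overlapping groups: 8.520, 8.997 and 8.725 with TFEB and 8.620, 8.203 and 8.534 with GFP (0.30 ± 0.16, adjusted p = 0.191). Of these 6 muscle, vessel and nerve laminins 2 rose, against 8.62% of all genes, and their median difference was 0.55. The 4 embryonic and epithelial chains had a median of 0.14, with Lamc3 the 1 that rose. Lama1, Lama3 and Lamb3 differed by 0.024 ± 0.084, 0.10 ± 0.13 and 0.18 ± 0.14, all with values under 5 on every array.

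The brightest probe sets of laminin chains differed in the size of their change, given here as a description of pairs picked with the values known. Subtracting one chain's log2 value from the other's on each array, Lamb1 gained on Lamc1 by 0.80 ± 0.16 (SE) in TFEB over GFP muscle, on Lamb2 by 1.01 ± 0.14 and on Lama2 by 1.25 ± 0.14. The groups did not overlap for these 3 pairs, whereas they did for Lamc1 against Lama2 (0.46 ± 0.18). These gaps, and those of the integrin pairs below, were computed on the brightest probe sets only. Other probe sets of Lamb1 (1.57 and 0.84) and Lamc1 (0.032) changed by other amounts, and gaps between them were not computed.

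Among the integrins that bind laminin in muscle, both Itga6 and Itga7 rose, and Itga3 and Itgb1 were not called (median of the 4 genes 0.47). Itga6, carried by myoblasts, endothelium and Schwann cells, read 9.16, 9.40 and 9.26 on the TFEB arrays and 8.32, 8.09 and 8.27 on the GFP arrays. This was 1.05 ± 0.096, or 2.07-fold (adjusted p = 0.00103), and its second probe set differed by 1.60 ± 0.095, or 3.04-fold (adjusted p = 0.000414). Itga7, the main laminin receptor chain of the mature fibre, read 8.74, 8.64 and 8.74 in TFEB muscle and 8.06, 7.84 and 8.01 in GFP muscle. It rose by 0.73 ± 0.084 (1.66-fold, adjusted p = 0.00187) on its only probe set.

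Itgb1, the beta chain with which Itga3, Itga6 and Itga7 all pair, was read by 6 probe sets, and 0 of them were called. The brightest read 10.19, 10.44 and 10.38 on the TFEB arrays and 10.06, 10.26 and 10.09 on the GFP arrays. The groups overlapped, with a difference of 0.20 ± 0.098 (adjusted p = 0.161). A second bright one differed by 0.19 ± 0.063 (adjusted p = 0.0609) with no overlap and another by -0.10 ± 0.11. The remaining 3 lay between 2.46 and 3.05 on all arrays, at about the level of the bacterial TrpnX control probe sets (means 2.64 to 2.94). Set against Itgb1 on the same arrays, Itga6 gained 0.85 ± 0.14 and Itga7 0.53 ± 0.17, with groups that did not overlap in either pair. Itga3, known from kidney and epithelia, read 6.48, 6.17 and 6.40 on the TFEB arrays and 6.45, 6.03 and 6.18 on the GFP arrays. It differed by 0.13 ± 0.13 on its brightest probe set and by -0.039 ± 0.090 and -0.099 ± 0.086 on the other two.

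**Figure D2:**
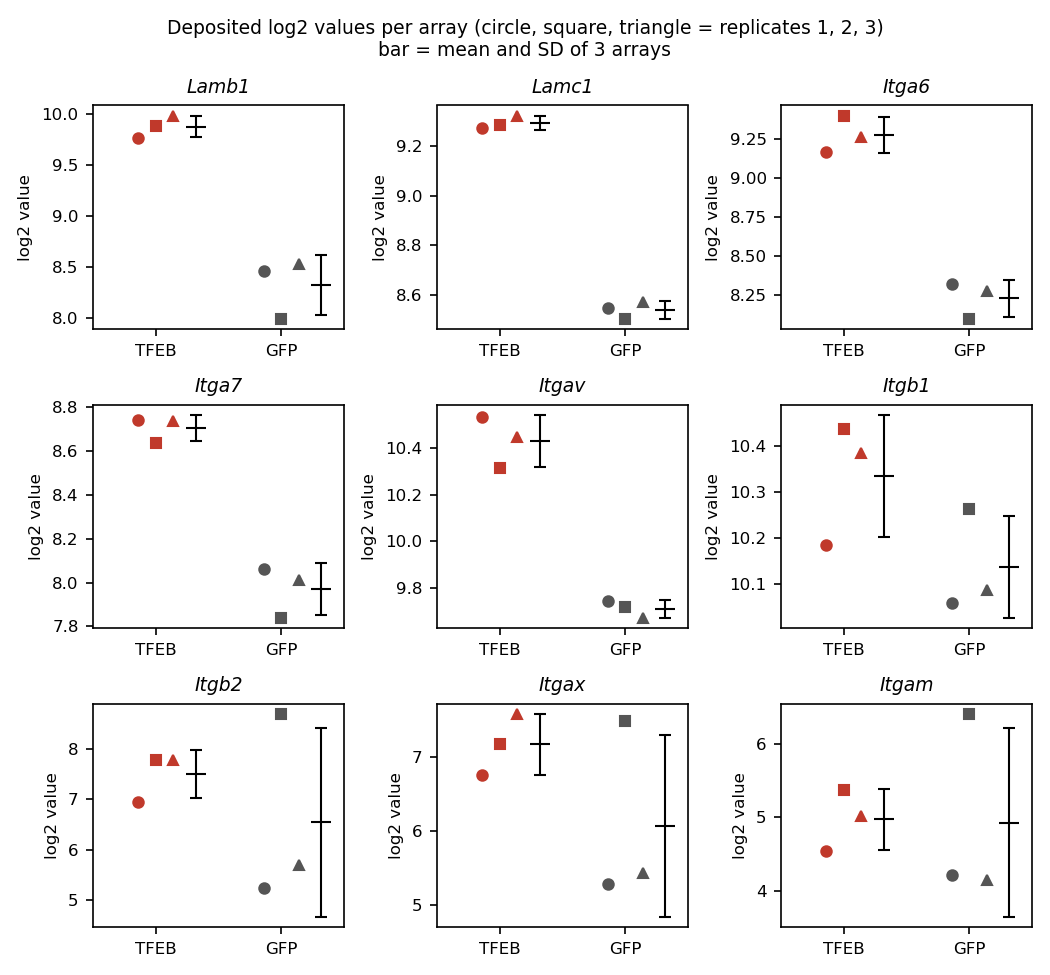
Deposited log2 values (y axis, scaled for each panel) of 9 genes on the 3 TFEB arrays (red, left) and the 3 GFP arrays (grey, right), with mean and SD beside the points. The groups are apart for Lamb1, Lamc1, Itga6, Itga7 and Itgav and overlap for Itgb1, Itgb2, Itgax and Itgam.

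Of the 5 integrins of vessels and platelets, 1 rose, Itgav, against 8.62% of all genes. Its beta partners Itgb3 and Itgb5 were not called. Itgb6, another partner, had 1 of 2 probe sets called lower, as given below. Itgav, the alpha chain of receptors for vitronectin and fibronectin, read 10.53, 10.31 and 10.45 on the TFEB arrays and 9.74, 9.71 and 9.67 on the GFP arrays. The difference was 0.72 ± 0.080 (1.65-fold, adjusted p = 0.00167). A second probe set rose by 0.62 ± 0.064, and the last differed by -0.18 ± 0.11 with TFEB below GFP on all arrays. Itgb5, one of the beta chains that pair with it, read 9.25, 9.48 and 9.41 in TFEB muscle and 9.70, 9.60 and 9.67 in GFP muscle. That is -0.27 ± 0.083 (adjusted p = 0.0446), under the fold limit, and its 4 probe sets ran from -0.47 to -0.11. On the same arrays Itgav gained 1.00 ± 0.13 on Itgb5 and 0.88 ± 0.11 on Itgb3, again with no overlap.

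Itgb3, the beta chain of platelets and growing vessels, differed by -0.16 ± 0.075 and Itga2b, its platelet partner, by -0.027 ± 0.15. Itga5, the alpha chain of the classical fibronectin receptor, read 5.90, 5.93 and 6.02 on the TFEB arrays and 5.68, 5.69 and 5.68 on the GFP arrays. It differed by 0.27 ± 0.067 (adjusted p = 0.0238) on 1 probe set and by -0.038 ± 0.083 on the other. The median of these 5 genes was -0.03, and of 6 platelet markers 0 were called, those of smallest p being Gp9 (-0.25 ± 0.068, adjusted p = 0.0330) and Treml1 (-0.22 ± 0.10). At the shares of all genes, 0 calls among 6 says little.

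**Figure D3:**
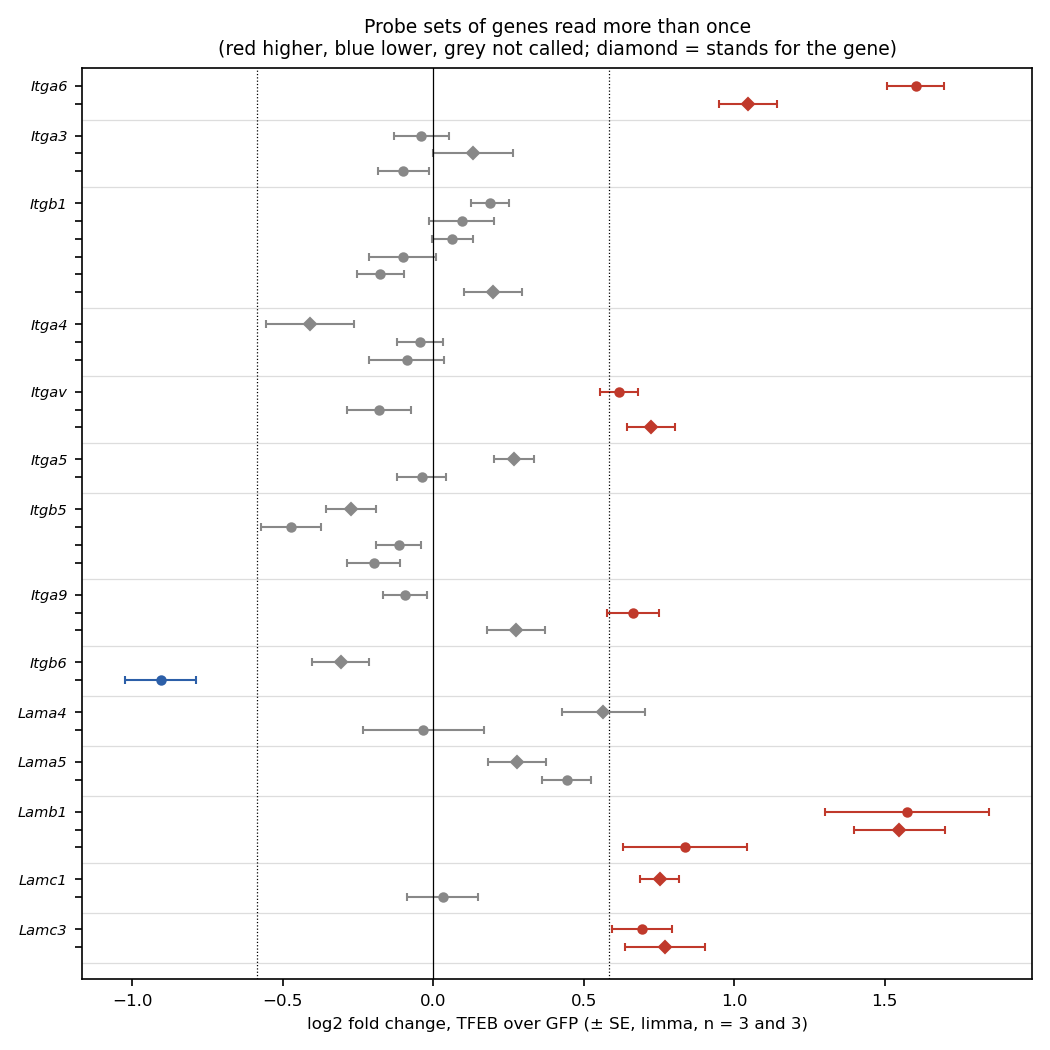
Log2 fold change of TFEB over GFP (x axis, ± SE from limma, 3 arrays per group) for each probe set of the 14 genes read more than once. Red probe sets were called higher, the blue one of Itgb6 was called lower and grey ones were not called; diamonds mark the brightest probe set of a gene and dotted lines the 1.5-fold limits. The probe sets of Lamb1, Itga6 and Lamc3 were all called, whereas those of Itgav, Lamc1, Itga9 and Itgb6 were split.

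Probe sets of 1 gene disagreed for Itga9 and Itgb6 too. Itga9, a receptor chain for tenascin, differed by 0.28 ± 0.095 (adjusted p = 0.0661) on its brightest probe set, while another read 5.12, 5.31 and 5.04 on the TFEB arrays and 4.48, 4.51 and 4.49 on the GFP arrays and rose (0.66 ± 0.087, adjusted p = 0.00278), and the third gave -0.094 ± 0.073. Itgb6, an epithelial chain that pairs with Itgav, held the only probe set that fell: 6.28, 6.62 and 6.33 in TFEB muscle, against 7.29, 7.20 and 7.46 in GFP muscle. That was 1.87-fold lower (-0.91 ± 0.12, adjusted p = 0.00264), and its brighter probe set differed in the same direction by -0.31 ± 0.094 (adjusted p = 0.0465), under the fold limit. The epithelial chain Itgb4, the collagen receptor chain Itga2 and the smooth muscle and kidney chain Itga8 were not called, at -0.30 ± 0.11, -0.26 ± 0.12 and -0.032 ± 0.13.

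The 8 integrins of leukocytes gave 0 calls and a median difference of -0.12, and the array that stood apart held the highest value for 6 of them. With 8.62% of all genes higher and 4.9% lower, 0 calls among 8 genes says little about leukocyte integrins. Itgb2, the beta chain of the leukocyte receptors for ICAMs and complement, read 6.95, 7.79 and 7.78 on the TFEB arrays and 5.23, 8.71 and 5.69 on the GFP arrays. GFP replicate 2 held the highest value of all and the other GFP arrays the lowest (0.96 ± 0.87, adjusted p = 0.424). Itgax, the alpha chain of dendritic cells and some macrophages, read 6.76, 7.17 and 7.58 with TFEB and 5.29, 7.49 and 5.43 with GFP (1.10 ± 0.58, adjusted p = 0.188). Itgam, the alpha chain of macrophages and neutrophils, read 4.53, 5.37 and 5.01 with TFEB and 4.21, 6.42 and 4.15 with GFP (0.047 ± 0.61, adjusted p = 0.959).

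Without GFP replicate 2 these 3 genes rose: Itgb2 by 2.04 (adjusted p = 0.00155), Itgax by 1.81 (adjusted p = 0.00107) and Itgam by 0.79 (adjusted p = 0.0269). That array was the highest of the GFP group for all 3, so leaving it out raises their differences by construction. These rises are given as a description only. With all 6 arrays both group means of Itgam were under 5 (4.97 and 4.93). The count of integrin and laminin genes that rose, these 3 among them, was then 9 (28.1%), against 12.3% of all genes in the same fit. GFP replicate 2 exceeded the mean of the other GFP arrays by 3.25 for Itgb2, 2.24 for Itgam and 2.13 for Itgax, and also by 0.77 for Itgb7, the beta chain of gut-homing lymphocytes, and 0.50 for Itgal, the alpha chain of LFA-1. The lymphocyte and other leukocyte chains Itgal, Itgae, Itgb7, Itgb2l and Itga4 differed by -0.41 to -0.11 between TFEB and GFP muscle and were not called with all 6 arrays.

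As with Itgb2, the means of macrophage, T cell and B cell markers were higher on GFP replicate 2 than on the other GFP arrays. This was not so for neutrophil markers. The mean of 14 macrophage markers, as a log2 deviation from the 6-array mean, was 0.06, 0.91 and 0.85 on the TFEB arrays and -1.29, 0.75 and -1.29 on the GFP arrays. With all arrays 1 marker rose, Cd68, by 2.73 ± 0.53, and without GFP replicate 2 13 of 14 did, against 12.3% of all genes in that fit. That array had the highest mean of these markers in the GFP group, so the second count is a description only. The 9 T cell markers stood at -0.17 to 0.13 on the TFEB arrays and at -0.46, 0.93 and -0.38 on the GFP arrays, and 0 of them were called, or 3 without GFP replicate 2 (with all arrays Thy1 0.81 ± 0.31, Cd5 -0.54 ± 0.45). Of 8 neutrophil markers S100a8 and S100a9 rose, by 3.25 ± 0.22 and 0.60 ± 0.11, while the granule genes of the list did not. Both group means of S100a9 were under 5 (4.84 and 4.23). The granule gene Camp was lower with groups that did not overlap (-0.37 ± 0.083, adjusted p = 0.0164), under the fold limit. The mean deviation of the 8 was -0.24, -0.19 and -0.17 on GFP replicates 1, 2 and 3. S100a9 was under the fold limit without TFEB replicate 1 (0.58), TFEB replicate 3 (0.57) or GFP replicate 2 (0.52). Of 5 B cell markers Blnk, an adaptor that macrophages also carry, rose by 2.02 ± 0.29. The mean deviation of the 5 was -0.52, 0.35 and -0.33 on GFP replicates 1, 2 and 3. The part of these cells in the integrin values was not tested.

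Some markers of vessel and stromal cells rose in the same arrays as the laminins, Itga6 and Itgav. Of 11 endothelial markers 6 rose and 0 fell (median 0.86), against 8.62% and 4.9% of all genes. The other 5 included Flt1 (-0.22 ± 0.10) and Vwf (0.12 ± 0.17). Those that rose included Esam (1.07 ± 0.065), Tie1 (1.55 ± 0.11) and Cldn5 (1.32 ± 0.10). Their mean deviation was 0.30 to 0.50 on the TFEB arrays and -0.52 to -0.28 on the GFP arrays. Of 8 smooth muscle and pericyte markers 3 rose (Pdgfrb 1.71 ± 0.087, Acta2 1.99 ± 0.21, Mcam 1.16 ± 0.14), with mean deviations of 0.32 to 0.44 on the TFEB arrays and -0.60 to -0.22 on the GFP arrays. The 5 not called included the smooth muscle genes Myh11 (0.23 ± 0.18) and Tagln (0.040 ± 0.19), with overlapping groups. Among 9 fibroblast markers 4 rose, including the collagens Col3a1, Col1a1 and Col1a2, while Dcn, decorin, differed by -0.031 ± 0.13, with mean deviations of 0.20 to 0.57 on the TFEB arrays and -0.57 to -0.34 on the GFP arrays.

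The myoblast genes Myog (3.47 ± 0.18), Myf5 (0.94 ± 0.14) and Ncam1 (0.90 ± 0.18) rose as 3 of 7 satellite cell and myoblast markers. The 4 not called were Pax7 (0.26 ± 0.13), Myod1 (0.17 ± 0.13), Cdh15 (0.10 ± 0.10) and Calcr (0.077 ± 0.077). Of 5 Schwann cell markers Egr2 was called (0.76 ± 0.24, adjusted p = 0.0474), with overlapping groups, and it stayed called in only 1 of the 6 fits that left out an array, that without GFP replicate 2. The part of any of these cell types in the laminin and integrin differences was not tested.

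**Figure D4:**
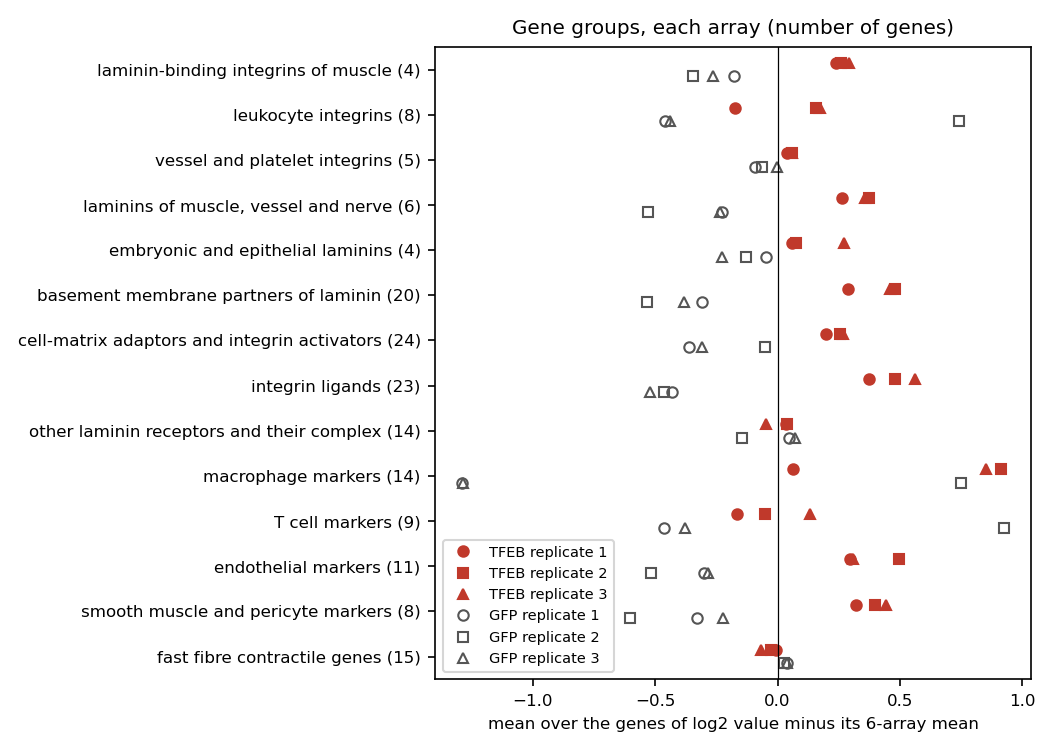
Mean over the genes of each group (number in brackets) of the log2 value minus its mean over the 6 arrays (x axis), for each of the 3 TFEB arrays (filled red) and 3 GFP arrays (open). The muscle, vessel and nerve laminins, the basement membrane partners and the endothelial markers separate the groups in this mean, while GFP replicate 2 lies with the TFEB arrays or beyond them for leukocyte integrins, macrophage and T cell markers.

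Of 20 partners of the laminins in the basement membrane, 13 rose, 7 were not called and 0 fell, with a median difference of 0.92. Over all genes 8.62% rose and 4.9% fell. The 13 included Col4a1 and Col4a2, the chains of network collagen, by 1.90 ± 0.11 and 1.87 ± 0.12, the linker Nid1 by 1.25 ± 0.090 and Agrn, the agrin of the neuromuscular junction, by 1.07 ± 0.074. Among the 7, perlecan, Hspg2, differed by 0.22 ± 0.073 (adjusted p = 0.0614), and Col4a3, Col4a4 and Col4a6, other chains of network collagen, by -0.35 ± 0.13, -0.26 ± 0.11 and -0.23 ± 0.079 with TFEB below GFP on all arrays. Of 14 laminin receptors other than integrins, with the proteins bound to them, 0 rose and 1 fell, with a median of 0.04. At the shares of all genes, counts of 0 and 1 among 14 say little about these receptors. The 1 that fell was Sgca, a sarcoglycan of the dystrophin complex (-0.68 ± 0.099), while dystroglycan, Dag1, differed by 0.14 ± 0.086. The difference between these lists was not tested.

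Of 23 ligands of integrins other than laminins, 11 rose, 12 were not called and 0 fell (median 0.85), with Postn, the periostin bound by integrins with Itgav, by 4.25 ± 0.23. It read 11.54, 11.43 and 11.82 on the TFEB arrays and 7.62, 6.84 and 7.60 on the GFP arrays. Tnc, a tenascin and ligand of Itga9, rose by 2.41 ± 0.15, Thbs1, a thrombospondin, by 1.43 ± 0.10 and Fn1, fibronectin, by 1.42 ± 0.21, whereas Vtn, vitronectin, differed by 0.23 ± 0.12 and Cdh1, E-cadherin, by -0.67 ± 0.53 with groups that overlapped.

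Inside the cell, 8 of 24 adaptors and activators of integrins rose and 1 fell (median 0.46), and 12 rose without GFP replicate 2. Actn1, an actinin that links integrins to actin, rose by 1.69 ± 0.11, the parvin Parva by 0.96 ± 0.10, Tln1, the talin that activates integrins, by 0.95 ± 0.15 and the kinase-like adaptor Ilk by 0.71 ± 0.078. Itgb1bp2, the muscle protein melusin that binds the tail of Itgb1, rose by 0.81 ± 0.082. Fermt2, a kindlin that also binds beta tails, fell by 0.68 on the log2 scale (SE 0.081, adjusted p = 0.00214). Over the 81 distinct genes of these 4 lists 32 rose and 2 fell, with a median of 0.45. Of all genes 8.62% rose and 4.9% fell, with a median of -0.05, and without GFP replicate 2 12.3% rose.

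TFEB binds the CLEAR element, whose core is CACGTG, so the promoters of the member genes were searched for it. RefSeq windows of 300 bases, most of them upstream of a start site (GRCm38.p6), were at hand for 20 of the 32 genes, in 23 windows. CACGTG, which is its own reverse complement, was in 0 of these 23 windows, against 7.2% of all 32851 windows, and its longer form TCACGTGA was in 0, against 1.0%. An AP-1 motif, TGANTCA on both strands, was in 3 of the 23 (13.0%, against 7.8%). The GC box GGGCGG, searched on both strands, was in 12 (52.2%, against 35.7%), and any E-box, CANNTG, which includes CACGTG, in 20 (87.0%, against 72.3%). The 2 windows of Lamb3 overlap, and Lamc1, Lamc3, Itga6 and Itga7 had no window here. The windows of the only genes that rose and had one, Lamb1 (chr12:31265043-31265342, plus strand, 63.7% GC) and Itgav (chr2:83724147-83724446, plus strand, 67.3% GC), are shown 5′ to 3′ with GC boxes of either strand in capitals:
Lamb1: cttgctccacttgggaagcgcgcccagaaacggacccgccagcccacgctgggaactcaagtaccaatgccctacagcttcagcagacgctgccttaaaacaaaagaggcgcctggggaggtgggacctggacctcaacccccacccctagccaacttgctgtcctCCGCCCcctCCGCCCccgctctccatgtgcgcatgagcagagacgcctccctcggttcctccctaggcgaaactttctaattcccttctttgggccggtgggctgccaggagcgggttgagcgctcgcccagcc
Itgav: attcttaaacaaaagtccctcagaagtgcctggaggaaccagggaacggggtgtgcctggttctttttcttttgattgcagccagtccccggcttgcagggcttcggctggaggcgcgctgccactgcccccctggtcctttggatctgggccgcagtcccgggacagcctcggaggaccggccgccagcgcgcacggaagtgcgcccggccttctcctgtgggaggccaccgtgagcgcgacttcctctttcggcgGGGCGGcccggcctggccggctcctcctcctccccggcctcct
Lamb1 held 2 GC boxes and 2 E-boxes of other letters than CACGTG, and Itgav 1 GC box and 0 E-boxes. A match is only a run of letters, and no match says only that these letters are not in this window.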

How the data were processed

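The authors deposited log2 values, 1 for each probe set on each of the 6 arrays. Per the labels, they made them with affy and RMA (no version stated), which corrects background, quantile-normalizes the arrays and sums up the probes of a set. That the scale is log2 follows from the range of the values (2.20 to 14.37). Quantile normalization evens out the arrays, so a shift of most transcripts one way would be partly removed. Arrays carry no count depth, and 3 arrays per group limit the precision.

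Of 22690 probe sets, 64 controls were left out. The platform annotation gave 1 symbol to 20380 of the others, several to 691 and none to 1555, and only the first were named. All 32 member genes matched RefSeq. A 2-group model without covariates was fitted with limma 3.58.1 (lmFit and eBayes, two-sided tests) under R 4.3.3, with Benjamini-Hochberg adjustment over 22626 probe sets. Adjusted p-values in the text are from that fit unless an alternative is named, each difference is TFEB minus GFP in log2 units, and ± is its SE. The limits on adjusted p (0.05) and fold (1.5) are those that the study's own list of changed genes names in its legend. The fit was also run on simulated data with independent arrays, none of which stood apart from its group. That run tells nothing about the part of GFP replicate 2.

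Every member gene is named. Full values are given for those called or whose probe sets disagree, and from each other list up to 3 called genes of smallest p each way, or the 2 of smallest p. Nid1, Hspg2, Col4a3, Col4a4, Col4a6, Dag1, Fn1, Vtn, Tln1, Ilk, Flt1, Vwf, Dcn, Cdh1 and Ryr1 and the chain pairs were picked with their values seen. So were Camp, Myh11, Tagln and the uncalled Schwann cell, satellite cell and myoblast markers. The members and lists were chosen with earlier results of these data known. Alternatives were 6 fits that leave out 1 array, a filter on dim probe sets (5, log2), 3 other scalings, array weights, another variance prior, the methods' t-test, a replicate block, no fold limit, and other choices of the probe set for a gene.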

Additional observations from a re-analysis of the deposited data

How the results depend on the processing

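Lamb1, Itga6, Itga7 and Lamc3 were called higher under every alternative run, and 10 of the other member genes could not be tested with dim probe sets left out. Lamc3 passed that filter only through its TFEB mean (5.73), since its GFP mean was 4.96. The filter therefore tells nothing about Lamc3, which was close to the dim limit. Itgav and Lamc1 were called under all but the mean of their probe sets (0.39 for each). With 1 array left out, 6 to 9 member genes, 12 to 16 member probe sets, 29 to 38 genes of the 4 pathway lists and 2429 to 4222 of all probe sets were called, the highest counts of members being those without GFP replicate 2. With no fold limit 11 member genes, 20 member probe sets and 7368 of all probe sets passed. Lama4 and Lamb2, just under the fold limit, passed it with fast fibre genes at equal medians (0.61 and 0.59), and with 1 array left out they ran from 0.45 to 0.66 and from 0.43 to 0.63. Itgax ran from 0.71 to 1.81 and Itgb2 from 0.31 to 2.04 with 1 array left out, and array weights called Itgax (1.55). Itgb6 passed with the mean of its probe sets (-0.61).

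Directions that turned all belonged to genes that were not called. Itga2b (0.020) and Itga8 (0.015) with fast fibre genes at equal medians, Itga8 with repeated quantile normalization (0.050), Itga3 with the mean of its probe sets (-0.0017) or that of smallest p (-0.099), Itgam (-0.022), Lama1 (-0.046) and Acta1 (-0.051) with arrays at equal medians, and Lama1 with array weights (-0.0021) changed sign. With 1 array left out, Itga2b ran from -0.19 to 0.10, Itga8 from -0.14 to 0.063, Itgae from -0.19 to 0.038, Itgam from -0.34 to 0.79, Lama1 from -0.031 to 0.061, Lama3 from -0.0037 to 0.20 and Cd5 from -0.87 to 0.034. The cause was not tested. Egr2 and S100a9, called as deposited, missed the limits under several settings, Cd68 with the methods' t-test after Benjamini-Hochberg adjustment (adjusted p = 0.0624) and Ncam1 with that test (adjusted p = 0.0610) and when its probe sets were averaged (0.57).

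Equal array medians moved the median of all probe sets to -0.13, against -0.06 as deposited, and the split of calls to 1475 higher and 1789 lower. The deposited scale gave 1700 and 1382, and fast fibre genes at equal medians 1926 and 1158. The replicate numbers did not pair the arrays (correlations of deviations 0.42, 0.17 and -0.23 for same-numbered arrays), and the fit with the replicate number as a block called 3052 probe sets, 12 member probe sets, 6 member genes and 34 pathway genes. Dim signal limits 17 of the 57 probe sets, whose group means were both under 5, among them the only or brightest ones of Itgam, Itgal, Itgae, Itga4, Itgb3, Itga2, Itga8, Lama1, Lama3 and Lamb3.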
